A study of Homo sapiens with 16 samples.

Results

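Gene expression was compared between NCI-H1975 cells given magnolin and control NCI-H1975 cells, with 4 RNA sequencing libraries in each group. These 8 libraries, of 16 in the series, were taken from the labels, which name the treatment and a replicate number from 1 to 4. Each magnolin library was set against the control library of the same number, because the 2 deposited tables may have been normalized separately. Replicates 1 and 2 stand in one table and replicates 3 and 4 in the other. NCI-H1975 is an established human lung adenocarcinoma line whose EGFR gene carries both an activating change and the gatekeeper change that confers resistance to early EGFR inhibitors. Every library carries the same labels otherwise: lung cancer cells, epithelium, genotype WT, total RNA. The labels give no dose, exposure time or vehicle, and whether replicates are separate cultures is not stated, so a p-value here covers no more than the spread of these libraries, possibly a technical one. The wider study asked which genes change once tumour cells tolerate EGFR inhibitors and looked for compounds that act on them, and it also sequenced a chloroform fraction of the same plant drug in NCI-H1975 and a second cell line.

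Magnolin is a furofuran lignan found in Flos Magnoliae, a plant drug made from magnolia flower buds, and it has been described as an inhibitor of ERK pathway kinases. Several of the gene groups described here belong to known stress and inflammatory programmes. When amino acids run short or other stresses act on eIF2alpha kinases, the transcription factor ATF4 is translated and turns on genes for serine synthesis, amino acid uptake and tRNA charging. NF-kB drives chemokine genes such as CXCL1 in epithelial tumour cells, and interferon signalling drives the IFIT, OAS and MX genes. The aryl hydrocarbon receptor, a sensor of many plant compounds, turns on CYP1A1 and CYP1B1.

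Libraries held 16.6 to 21.3 M rebuilt reads, and 12106 to 13662 genes reached 1 FPKM (fragments scaled to gene length and library size). Mitochondrial transcripts took 5.83% to 9.42% of the reads. Replicate 1 of both groups stood apart from replicates 2 to 4. EPCAM, a surface marker of epithelial cells, was at 193, 14.4, 10.99 and 12.97 FPKM in control replicates 1 to 4 and at 172, 9.62, 8.51 and 7.65 FPKM in the magnolin replicates. Replicate 1 was thus far above the other 3 numbers in both groups. By a gap test for single samples, 250 of 12781 genes (1.96%) set replicate 1 apart in the same way in both groups, against 10 genes for replicate 2 and 0 for replicates 3 and 4. The summed level of 22 epithelial markers was 1554 FPKM in control replicate 1 and 669 to 751 FPKM in the other controls, and 1541 FPKM in magnolin replicate 1 and 482 to 532 FPKM in the other magnolin libraries. Of 14 lung lineage markers 5 reached 1 FPKM in any library, among them the lineage factor NKX2-1 at 5.72, 1.61, 3.07 and 2.69 FPKM in control and 9.06, 2.46, 2.07 and 2.19 FPKM in magnolin. The surfactant genes SFTPA1, SFTPA2, SFTPB and SFTPC stayed below 1 FPKM, and the secretory cell markers SCGB1A1 and SCGB3A1 are listed at 0 in all 8 libraries. None of 10 leukocyte markers reached 1 FPKM in any library, and their sum was at most 1.19 FPKM. For endothelial cells 2 of 6 markers did so, with sums of 0.830 to 6.56 FPKM in control and 0.571 to 1.97 FPKM in magnolin, and for fibroblasts 2 of 8, with sums of 2.91 to 25.2 and 2.15 to 15.5 FPKM. What part the difference between replicate 1 and the others has in any result was not tested, and the values of all 4 replicates are therefore given one by one.

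Magnolin changed few genes past the test, and by moderate amounts. With the replicate number as a block, 40 of 12781 tested genes (0.313%) passed an adjusted p of 0.05, 18 higher (0.141%) and 22 lower (0.172%) in magnolin, and 1489 genes had an unadjusted p under 0.05. The adjusted p of the 40 in this limma fit ran only from 0.0386 to 0.0496, so every call lies close to the threshold. All 40 differed in the same direction in all 4 replicates, which the call makes nearly certain, since it rests on the same 4 differences. Their estimated changes were 0.64 to 1.66 in size on the log2(FPKM + 1) scale. That scale understates the change of genes of low level. Of the 40, 36 are protein-coding, and 8 higher and 10 lower genes moved at least 2-fold. The 8 libraries did not overlap between the groups for 16 of them, where 203 (1.59%) of all tested genes lay above and 136 (1.06%) below control in this way. For 26 of the 40 the libraries did not overlap within either of the tables. The share over all tested genes was not counted for this, and the call itself favours such genes. Counting without a test, 2654 genes (20.8%) had the same sign in all 4 replicates, 1493 (11.7%) higher and 1161 (9.08%) lower with magnolin. The counts of each list below are to be read beside these shares of all tested genes. At so low a share of calls, 0 calls in a list differs little from all tested genes. Leaving out replicate 1, 2, 3 or 4 changed the count of calls to 11, 0 (1241 at an unadjusted p under 0.05), 109 and 87, and it was 0 without the block (659), with no filter on low genes (2173) and with the chloroform libraries in the fit (1248). Of the 11 genes called without replicate 1, PHGDH, PCK2, NDRG1, LCN2, SERPINB3 and SERPINB4 are among the 40, while SLC7A5, CCL2, CXCL6, PDZK1IP1 and SEMA6B are not, the last 3 singled out after their values were seen. The count of genes of one sign was 4518 without replicate 1 and 4223 without replicate 2, since fewer replicates had to match.

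**Figure D1:**
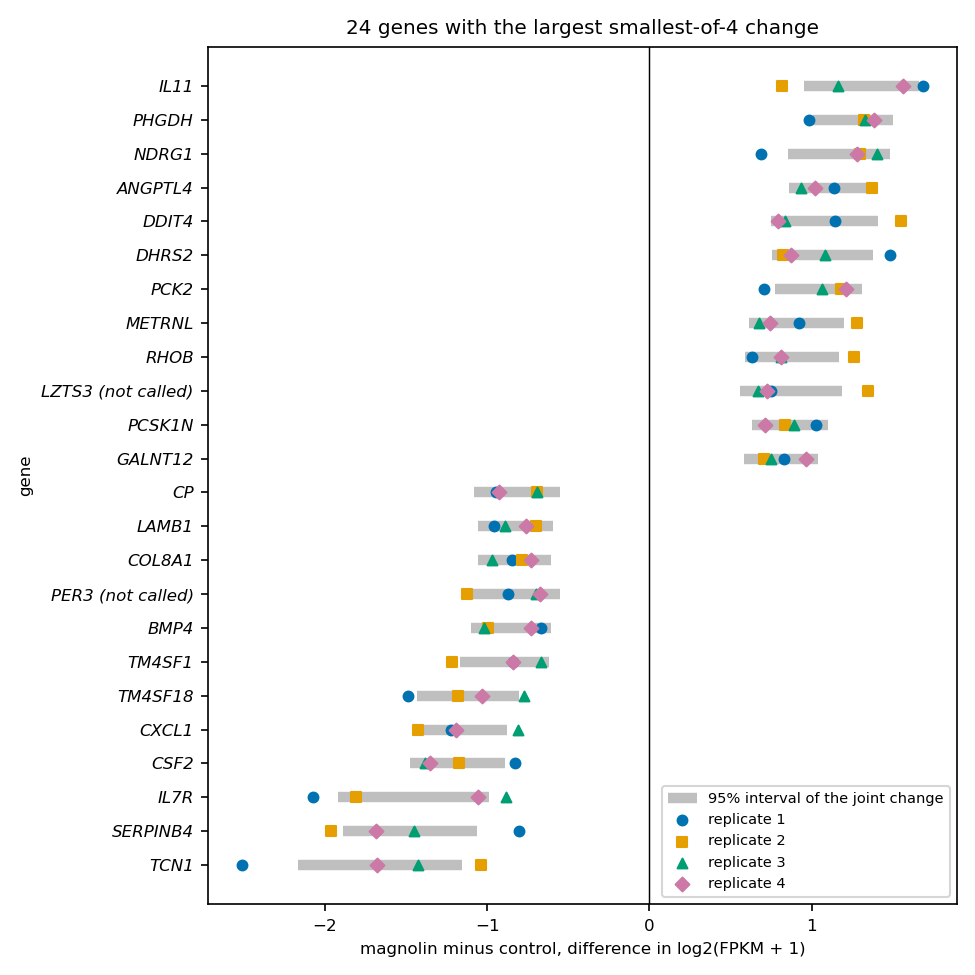
Magnolin minus control of the same replicate number, as a difference in log2(FPKM + 1), for the 12 higher and 12 lower protein-coding genes whose smallest of 4 differences was largest. Points are the 4 replicates and grey bars the 95% interval of the joint change. All points of a gene lie on one side of 0, which the choice of genes fixes, and LZTS3 and PER3 did not pass the test. PER3 reached 1 FPKM in control libraries alone, so it was tested only through that group.

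Most genes of the ATF4 programme were higher with magnolin, led by enzymes of amino acid and phosphoenolpyruvate metabolism. PHGDH (chr1:119648411-119744226, plus strand, hg38) makes the committed step of serine synthesis and was at 2.62, 5.12, 4.498 and 4.11 FPKM in control replicates 1 to 4. It was at 6.16, 14.3, 12.8 and 12.3 FPKM in magnolin replicates 1 to 4. All 4 magnolin libraries lay above all 4 controls, the lowest of both groups being replicate 1. The log2 change was 1.25 ± 0.11 (SE, adjusted p = 0.0386), or 2.38-fold. PCK2, the mitochondrial phosphoenolpyruvate carboxykinase, rose from 2.96, 5.92, 5.79 and 5.95 FPKM to 5.45, 14.7, 13.2 and 15.1 FPKM. Only magnolin replicate 1 fell inside the control range. Its log2 change was 1.04 ± 0.12 (adjusted p = 0.0386). DDIT4, an inhibitor of mTORC1 induced by many stresses, was at 4.14, 4.74, 16.5 and 14.1 FPKM in control and 10.4, 15.8, 30.3 and 25.1 FPKM in magnolin. It was higher in each pair although the levels of replicates 3 and 4 exceeded those of replicates 1 and 2 in both groups, and its log2 change was 1.08 ± 0.14 (adjusted p = 0.0462).

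Of 19 tested ATF4 regulators and targets, 2 rose (PCK2 and DDIT4) and 0 fell, where 0.141% and 0.172% of all tested genes did. In all 4 replicates 12 were higher and 0 lower, where 11.7% and 9.08% of all tested genes were. The median change of the list was 0.56 against 0.00 over all tested genes, and 0.37, 0.74, 0.48 and 0.54 in replicates 1 to 4. CHAC1, which breaks down glutathione, had the largest change of the list without passing the test. It was at 2.01, 0.772, 1.01 and 1.94 FPKM in control and 6.01, 6.93, 4.38 and 3.32 FPKM in magnolin, with no overlap between the groups. Its log2 change was 1.34 ± 0.23 (adjusted p = 0.0784), and the 4 differences ran from 0.56 to 2.16. ATF3, an early stress transcription factor, was at 4.68, 3.25, 2.25 and 2.003 FPKM and 6.05, 7.32, 2.74 and 4.02 FPKM (adjusted p = 0.212).

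Among 9 serine and one-carbon enzymes, PHGDH alone passed the test, 5 were higher in all 4 replicates and 0 lower, and the median was 0.27. PSAT1, the next enzyme of serine synthesis, was at 57.99, 85.8, 65.1 and 68.6 FPKM in control and 63.9, 124, 121 and 125 FPKM in magnolin. The difference was 0.14 in replicate 1 and 0.53 to 0.88 in the others (adjusted p = 0.176). PSPH, which completes the pathway, was at 25.6, 23.4, 21.6 and 22.1 FPKM and 27.99, 32.5, 31.4 and 35.5 FPKM. Its groups did not overlap, yet its change of 0.44 ± 0.12 did not pass (adjusted p = 0.214). ALDH1L2, a mitochondrial folate enzyme, was at 1.07, 1.58, 2.95 and 2.87 FPKM and 1.59, 5.403, 6.16 and 5.67 FPKM (adjusted p = 0.107).

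Of 10 amino acid transporters 0 passed the test, 5 were higher and 1 lower in all 4 replicates, and the median was 0.24. It was 0.03, 0.45, 0.30 and 0.28 in replicates 1 to 4. SLC7A5, the large neutral amino acid carrier, was at 126, 106, 108 and 122 FPKM in control and 136, 244, 261 and 268 FPKM in magnolin. All magnolin libraries lay above all controls, but replicate 1 only just, with differences of 0.12, 1.20, 1.26 and 1.13. With all 4 replicates its change was 0.93 ± 0.20 (adjusted p = 0.131), and without replicate 1 it was 1.20 and among the 11 genes called. SLC3A2, its heavy-chain partner, was at 65.03, 59.98, 37.2 and 40.5 FPKM and 76.97, 75.9, 66.5 and 68.8 FPKM, again with no overlap. SLC1A4, a carrier of alanine and serine, was at 1.18, 3.41, 4.28 and 4.64 FPKM and 1.998, 8.002, 7.45 and 8.55 FPKM (adjusted p = 0.0637). SLC7A11, the cystine importer, was at 8.18, 3.09, 2.94 and 3.61 FPKM and 10.1, 7.93, 6.82 and 5.97 FPKM. Of 18 cytosolic tRNA synthetases 0 passed, 6 were higher and 0 lower in all 4 replicates, and the median was 0.19, or 0.28 without replicate 1. In replicates 1 to 4 it was -0.05, 0.13, 0.34 and 0.31. AARS, which charges alanine tRNA, was at 53.8, 67.4, 77.6 and 76.9 FPKM in control and 75.6, 114, 109.7 and 111 FPKM in magnolin (adjusted p = 0.0913).

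ATF4 binds with C/EBP partners to an element of which TGATGNAA is a common core, so RefSeq promoter sequences (GRCh38.p14, 250 bases before to 50 after each gene start) were searched for it on both strands. It was present in 3.617% of all 35116 promoters, in 1 of 6 serine and one-carbon promoters and in 2 of 17 ATF4 list promoters. It was also in 3 of 9 transporter promoters and 6 of 14 tRNA synthetase promoters. A match is a description of the letters and does not show binding. MTHFD1L and IARS hold a match upstream of the start too, and their windows are not shown. Their log2 changes were -0.003 and 0.19, without the same sign in all 4 replicates. Windows were taken only for matches that end before the start, and not for every chromosome. The other promoters with a match, all 3 of the transporters among them, thus have no window, and the changes of those genes were not set beside the match. The 3 windows shown hold a match upstream of the start in genes that were higher in all 4 replicates, written 5′ to 3′ on the strand of the gene with the match in capitals; CHAC1 and AARS hold it on the opposite strand, as its reverse complement. They lie at chr15:40953242-40953289 on the plus strand for CHAC1, chr16:70289666-70289713 on the minus strand for AARS and chr1:212565196-212565243 on the plus strand for ATF3.
CHAC1: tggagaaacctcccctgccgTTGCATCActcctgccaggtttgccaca
AARS: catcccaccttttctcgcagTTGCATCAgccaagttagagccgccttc
ATF3: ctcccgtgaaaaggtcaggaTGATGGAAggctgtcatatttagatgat

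Genes known from the response to low oxygen, and glycolytic isozymes among them, held the most rising members of any list. The lists differ in size and were chosen with earlier results of these data known, so this ranking is a description and no test. Of 22 tested genes of this list, 5 rose (NDRG1, ANGPTL4, ALDOA, ENO2 and ALDOC) and 0 fell, where 0.141% and 0.172% of all tested genes did. In all 4 replicates 13 were higher and 1 lower, where 11.7% and 9.08% of all tested genes were. The median was 0.37, with 0.29, 0.36, 0.39 and 0.47 in replicates 1 to 4. NDRG1, a stress-responsive protein tied to differentiation, was at 8.87, 8.096, 8.19 and 8.68 FPKM in control replicates 1 to 4 and 14.9, 21.4, 23.3 and 22.5 FPKM in magnolin. The controls were nearly equal and every magnolin library lay above them, with replicate 1 the lowest. Its log2 change was 1.17 ± 0.14 (adjusted p = 0.0386). ANGPTL4, a secreted inhibitor of lipoprotein lipase, was at 29.5, 31.4, 36.4 and 42.6 FPKM and 66.04, 82.9, 70.3 and 87.3 FPKM, also with no overlap. It rose by 1.12 ± 0.11 (adjusted p = 0.0386); it overlaps the antisense gene RAB11B-AS1, and without knowledge of the strand setting their reads cannot be told apart.

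The 3 called glycolytic genes are isozymes of aldolase and enolase. ALDOA, the main aldolase, was at 3.099, 2.91, 3.04 and 2.64 FPKM in control and 5.64, 6.203, 5.099 and 5.26 FPKM in magnolin. Its groups did not overlap and it rose by 0.74 ± 0.10 (adjusted p = 0.0487). The annotation also holds a protein-coding gene, AC093512.2, that spans ALDOA, so how reads were divided between them is uncertain and the level of ALDOA with it. ENO2 and ALDOC were singled out after their values were seen, as the remaining called members. ENO2, the neuronal-type enolase, was at 11.1, 4.33, 5.49 and 4.53 FPKM and 22.1, 7.78, 8.28 and 8.89 FPKM, and ALDOC, the brain-type aldolase, at 17.7, 11.4, 10.6 and 8.52 FPKM and 35.2, 17.2, 16.8 and 17.1 FPKM. Both were higher in each pair, and replicate 1 was the highest library of both groups for both genes. Their log2 changes were 0.75 ± 0.11 and 0.76 ± 0.11 (adjusted p = 0.0487 and 0.0496). Without replicate 1, NDRG1 was the only member still called, while the median of the list was 0.42.

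**Figure D2:**
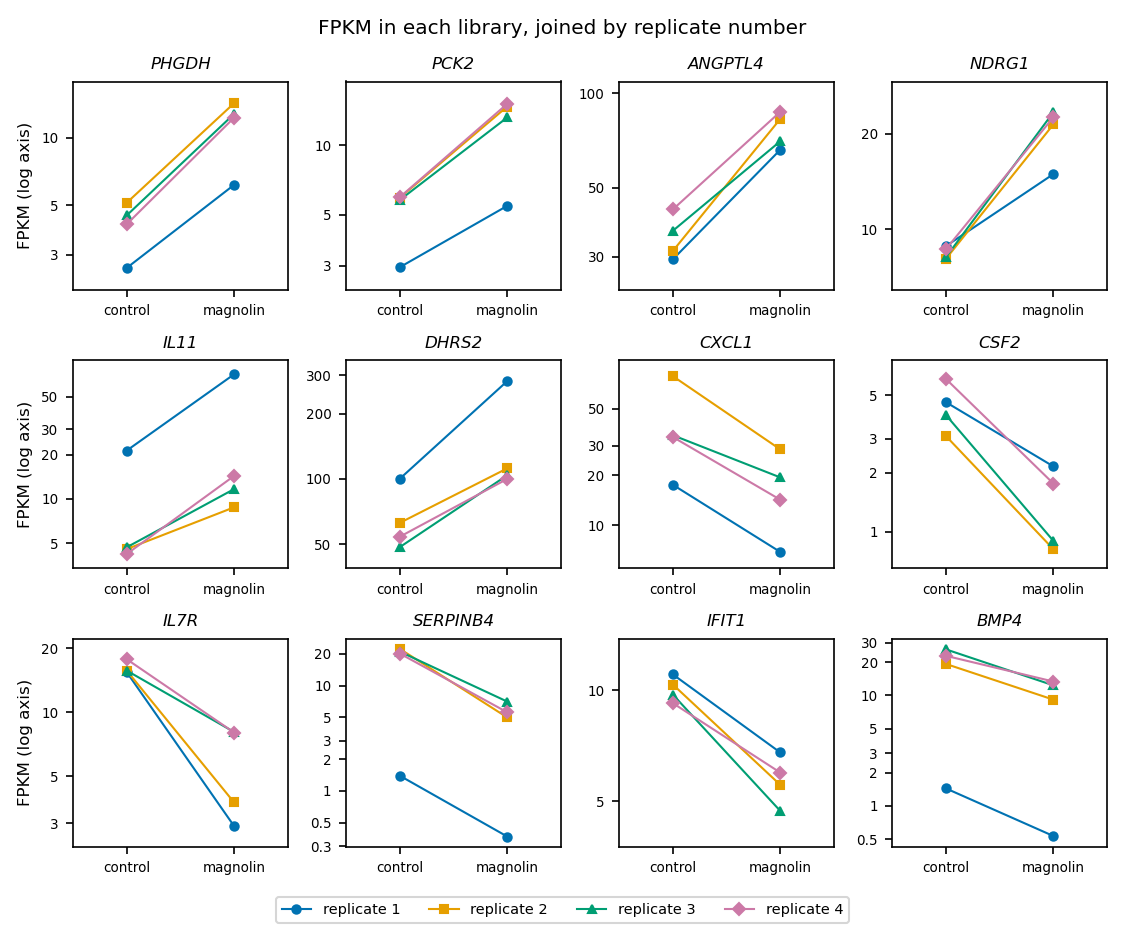
FPKM of 12 genes in control and magnolin, on log axes that differ between panels, with lines joining the libraries of one replicate number. PHGDH, ANGPTL4 and NDRG1 separate the groups fully, while for IL11, SERPINB4 and BMP4 replicate 1 lies far from the other replicates in both groups.

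Of 18 tested chemokine and NF-kB genes, 1 fell (CXCL1) and 0 rose, where 0.172% and 0.141% of all tested genes did. A change below 0 was seen in 13 and above 0 in 5. In all 4 replicates 11 were lower and 1 higher, where 9.08% and 11.7% of all tested genes were. The median was -0.35, with -0.37, -0.25, -0.35 and -0.34 in replicates 1 to 4. CXCL1, a neutrophil chemoattractant, was at 17.5, 78.6, 34.7 and 33.9 FPKM in control replicates 1 to 4 and 6.93, 28.6, 19.4 and 14.3 FPKM in magnolin. Replicate 2 was highest in both groups and replicate 1 lowest, so the groups overlapped in the first table but each pair fell. Its log2 change was -1.16 ± 0.12 (adjusted p = 0.0386). CCL2, a monocyte chemoattractant, was at 1.34, 24.8, 18.9 and 14.9 FPKM and 0.642, 7.15, 3.71 and 3.53 FPKM. Replicate 1 had little of it in either group, and replicates 2 to 4 differed by -1.66 to -2.08. Its change of -1.52 ± 0.23 just missed the threshold (adjusted p = 0.05804) and was -1.85, and called, without replicate 1. CXCL8, another neutrophil chemoattractant, was at 35.8, 79.3, 26.8 and 26.7 FPKM and 26.3, 52.4, 14.8 and 11.1 FPKM (adjusted p = 0.0913). The NF-kB feedback inhibitor NFKBIA and the cytokine IL6 in the same list had changes of 0.00 and 0.17, and neither had the same sign in all 4 replicates; both were singled out after their values were seen.

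The promoters of 5 CXC chemokine genes on chromosome 4 hold an NF-kB type sequence. CXCL8 is not among the genes matching the letters searched, which does not show that it lacks such a sequence. The letters GGGNNTTTC were found on either strand in 9 of 16 promoters of the list and in 4.784% of all 35116 promoters; IL6 and NFKBIA are among the 9. The windows of the 5 CXC genes with a match are shown because the same 9 bases, in capitals, recur in each. They lie at chr4:73869294-73869342 (plus strand) for CXCL1, chr4:74099245-74099293 (minus) for CXCL2, chr4:74038740-74038788 (minus) for CXCL3, chr4:73998740-73998788 (minus) for CXCL5 and chr4:73836568-73836616 (plus) for CXCL6.
CXCL1: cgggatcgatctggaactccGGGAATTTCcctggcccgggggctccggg
CXCL2: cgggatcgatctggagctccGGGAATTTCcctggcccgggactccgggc
CXCL3: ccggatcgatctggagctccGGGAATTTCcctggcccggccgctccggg
CXCL5: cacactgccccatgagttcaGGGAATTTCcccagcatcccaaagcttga
CXCL6: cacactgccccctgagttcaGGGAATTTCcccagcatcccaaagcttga

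Apart from CXCL1 these genes were chosen for their promoter letters, with their values known, and 0 of the other 4 passed the test. CXCL2 was at 8.67, 35.1, 18.7 and 17.3 FPKM in control and 6.66, 22.7, 10.7 and 12.5 FPKM in magnolin (log2 change -0.53, adjusted p = 0.1205). CXCL3 was at 0.804, 2.08, 1.74 and 1.07 FPKM and 0.766, 1.997, 0.664 and 0.517 FPKM (log2 change -0.31, adjusted p = 0.494). All 5 were lower in each of the 4 pairs. CXCL5 was at 7.37, 8.19, 4.27 and 4.22 FPKM and 5.42, 3.41, 3.57 and 2.21 FPKM (log2 change -0.59, adjusted p = 0.198). CXCL6 was at 2.15, 8.24, 5.17 and 4.55 FPKM and 1.46, 1.61, 1.19 and 0.83004 FPKM (log2 change -1.32, adjusted p = 0.0834), and like CCL2 it was called without replicate 1.

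Cytokines outside the chemokine list moved in both directions. IL11 (chr19:55364389-55370463, minus strand), a cytokine of the IL6 family, was at 21.4, 4.55, 4.68 and 4.21 FPKM in control and 71.2, 8.77, 11.7 and 14.4 FPKM in magnolin. It was higher in each pair, from a level in replicate 1 that was several times that of the others in both groups. It rose by 1.31 ± 0.15 (adjusted p = 0.0386), or 2.47-fold. IL7R, the receptor chain for interleukin 7, was at 15.4, 15.7, 15.7 and 17.8 FPKM in control and 2.91, 3.76, 8.08 and 8.03 FPKM in magnolin. The controls were nearly equal, and the magnolin libraries of the first table lay well below those of the second table. It fell by 1.45 ± 0.20 (adjusted p = 0.0487); the unadjusted p of the difference between tables was 0.00174, which did not pass over all genes. CSF2, the growth factor GM-CSF, was at 4.6004, 3.09, 3.95 and 6.05 FPKM and 2.16, 0.814, 0.898 and 1.77 FPKM. Its groups did not overlap, and it fell by 1.18 ± 0.13 (adjusted p = 0.0386). Of 12 genes in this cytokine list 1 rose and 2 fell, 3 were higher and 2 lower in all 4 replicates, and the median was -0.06. GDF15, a stress cytokine, was at 21.7, 17.99, 20.3 and 21.3 FPKM and 25.5, 35.7, 32.4 and 28.2 FPKM, with no overlap but short of the threshold (adjusted p = 0.1804).

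Of 9 acute phase and innate genes 2 fell (LCN2 and CP) and 0 rose; these were the only 2 lower in all 4 replicates, and the median was -0.82, with 0.14 in replicate 1 and -0.69 to -0.93 in the others, and -0.41 when replicate 3 was left out. LCN2, an iron-scavenging innate protein, was at 1.596, 16.2, 11.96 and 8.94 FPKM in control and 0.864, 5.61, 3.83 and 3.06 FPKM in magnolin. Replicate 1 was lowest in both groups. It fell by 1.14 ± 0.17 (adjusted p = 0.0496). CP, the copper ferroxidase ceruloplasmin, was at 2.77, 2.23, 2.34 and 2.32 FPKM and 0.954, 1.002, 1.07 and 0.745 FPKM, did not overlap between groups and fell by 0.82 ± 0.12 (adjusted p = 0.0487); it overlaps HPS3. CD14, a co-receptor for bacterial lipopolysaccharide, was at 2.11, 23.5, 32.6 and 20.9 FPKM and 2.704, 9.96, 6.12 and 6.405 FPKM. It was lower in 3 pairs and higher in replicate 1 (adjusted p = 0.245).

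The paired protease inhibitors SERPINB3 and SERPINB4, squamous cell carcinoma antigens that are near-identical neighbours on chromosome 18, both fell. SERPINB4 was at 1.39, 22.3, 20.995 and 20.1 FPKM in control and 0.369, 4.99, 7.05 and 5.58 FPKM in magnolin. SERPINB3 was at 0.832, 8.46, 10.6 and 11.6 FPKM and 0.209, 1.92, 3.41 and 3.74 FPKM. The differences in replicates 1 to 4 were -0.81, -1.96, -1.45 and -1.68 for SERPINB4 and -0.60, -1.69, -1.40 and -1.41 for SERPINB3, and replicate 1 held little of either transcript in both groups. The log2 changes were -1.47 ± 0.18 and -1.28 ± 0.17 (adjusted p = 0.0386 and 0.0487). Because the 2 genes are so alike, the split of reads between them is uncertain. Of 11 SERPINB and S100 genes 2 fell and 0 rose, where 0.172% and 0.141% of all tested genes did. In all 4 replicates 7 were lower and 1 higher, where 9.08% and 11.7% of all tested genes were, and the list median was -0.37. S100A4, a calcium-binding protein tied to motility, was at 2.19, 23.8, 24.5 and 20.5 FPKM and 0.8293, 13.1, 11.5 and 15.5 FPKM, lower in each pair (adjusted p = 0.0669); it overlaps S100A3.

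Interferon-stimulated genes were lower in most members by modest amounts. Of 20 tested, 1 fell (IFIT1) and 0 rose, where 0.172% and 0.141% of all tested genes did. In all 4 replicates 13 were lower and 1 higher, where 9.08% and 11.7% of all tested genes were. The median was -0.41, with -0.29, -0.28, -0.48 and -0.44 in replicates 1 to 4. IFIT1, which binds viral RNA lacking a self cap, was at 11.03, 10.4, 9.72 and 9.22 FPKM in control replicates 1 to 4 and 6.78, 5.54, 4.71 and 5.98 FPKM in magnolin. The groups did not overlap and no replicate stood apart. It fell by 0.72 ± 0.10 (adjusted p = 0.0495); LIPA overlaps it in the annotation. IFIT3, its partner, was at 28.6, 26.003, 28.1 and 26.7 FPKM and 16.2, 19.2, 20.1 and 18.9 FPKM (adjusted p = 0.112). DDX58, the RNA sensor RIG-I, was at 20.9, 12.2, 14.1 and 13.98 FPKM and 10.2, 7.52, 9.76 and 9.63 FPKM (adjusted p = 0.0882). Neither IFIT3 nor DDX58 overlapped between groups. The median of 12 class I antigen presentation genes was -0.02, and 0 were called, where 0.313% of all tested genes were.

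The letters TTTCNNTTT, from the core of the interferon-stimulated response element, were present on either strand in 14 of 15 promoters of this list and in 10.48% of all promoters. The windows shown are those of IFIT1 and IFIT3 with matches on the strand of the gene, 2 each, in capitals. Those of IFIT1, at chr10:89392487-89392535 and chr10:89392500-89392548, overlap one another, as do those of IFIT3 at chr10:89327821-89327869 and chr10:89327855-89327903, and all are on the plus strand.
IFIT1 first window: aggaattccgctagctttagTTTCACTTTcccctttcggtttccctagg
IFIT1 second window: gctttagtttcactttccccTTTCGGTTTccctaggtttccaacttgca
IFIT3 first window: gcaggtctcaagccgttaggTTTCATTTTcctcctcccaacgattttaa
IFIT3 second window: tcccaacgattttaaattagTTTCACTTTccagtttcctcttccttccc

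By their median, the aryl hydrocarbon receptor and its targets were higher in replicates 2 to 4, without passing the test. Of 7 tested genes 0 were called, 3 were higher and 0 lower in all 4 replicates, and the median was 0.42. It was -0.03, 0.74, 0.57 and 0.35 in replicates 1 to 4. CYP1A1, a monooxygenase of foreign compounds, was at 2.49, 1.66, 1.24 and 1.37 FPKM in control and 4.18, 4.21, 6.43 and 10.8 FPKM in magnolin. The groups did not overlap, and the differences were 0.57 and 0.97 in the first table and 1.73 and 2.32 in the second table (log2 change 1.40 ± 0.26, adjusted p = 0.0965). CYP1B1 was at 68.6, 199, 189 and 198 FPKM and 95.1, 332, 330.2 and 350.3 FPKM, higher in each pair (log2 change 0.71 ± 0.11, adjusted p = 0.05804). AHR itself was at 14.2, 42.8, 39.99 and 40.04 FPKM and 12.2, 43.1, 43.001 and 44.1 FPKM (log2 change 0.01, adjusted p = 0.983). TIPARP and AHRR were higher in replicates 2 to 4 but not in replicate 1, and NQO1, given with the NRF2 targets, was higher in all 4. TIPARP was at 25.2, 24.4, 19.8 and 22.8 and 24.4, 43.7, 40.6 and 41.3 FPKM, and AHRR at 0.9099, 3.42, 5.31 and 5.87 and 0.865, 7.38, 8.39 and 6.99 FPKM.

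Of 14 NRF2 targets 0 passed, where 0.313% of all tested genes did. In all 4 replicates 7 were higher and 1 lower, where 11.7% and 9.08% of all tested genes were, and the list median was 0.31. TXNRD1, thioredoxin reductase, was at 103, 88.96, 78.2 and 84.99 FPKM in control and 148, 136, 95.8 and 107 FPKM in magnolin (adjusted p = 0.182), and NQO1, a quinone reductase, at 74.2, 107, 77.9 and 80.9 FPKM and 132, 112, 98.9 and 103 FPKM (adjusted p = 0.327). Of 5 metallothioneins 0 passed and 3 were higher in all 4 replicates. MT1A was at 13.9, 13.1, 7.27 and 5.71 FPKM in control and 20.4, 14.7, 20.1 and 15.6 FPKM in magnolin, with differences of 0.52, 0.16, 1.35 and 1.30 (adjusted p = 0.182).

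EGFR, the receptor whose mutations define this line, was at 36.8, 14.7, 28.03 and 29.04 FPKM in control replicates 1 to 4 and 29.5, 20.002, 25.9 and 24.8 FPKM in magnolin. The groups overlapped, replicate 2 was higher with magnolin and the other 3 lower, and the log2 change was -0.06 ± 0.14 (95% interval -0.37 to 0.26, adjusted p = 0.918). ERBB2 was at 4.58, 3.38, 6.24 and 5.92 FPKM and 7.52, 6.66, 5.66 and 5.22 FPKM, above control in the first table and below it in the second table (log2 change 0.29 ± 0.18, adjusted p = 0.596). ERBB3, below the filter, was at 2.53, 0.30999, 0.369 and 0.263 FPKM in control and 3.51, 0.337, 0.2802 and 0.274 FPKM in magnolin, with replicate 1 above the others in both groups. MET, a receptor that can bypass EGFR, was at 116, 32.8, 36.5 and 38.9 FPKM and 86.04, 38.04, 40.1 and 41.7 FPKM (log2 change 0.00, adjusted p = 0.996). AXL, another bypass receptor, was at 23.8, 7.34, 7.41 and 8.21 FPKM and 18.6, 4.299, 7.85 and 7.699 FPKM (log2 change -0.25, adjusted p = 0.54001). Of 8 EGFR family genes and ligands and 7 other receptor tyrosine kinases, 0 passed the test, where 0.313% of all tested genes did. For so few genes 0 calls is near that share and sets the receptors apart in no way.

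Genes that report ERK activity did not fall past the test. Of 16 tested 0 passed, which is near the share of 0.313% over all tested genes. In all 4 replicates 4 were higher and 0 lower, and the median was 0.17, or 0.10 without replicate 3. ETV5, a transcription factor induced by ERK, was at 8.16, 7.24, 7.8996 and 7.85 FPKM in control and 10.3, 10.04, 10.3 and 10.7 FPKM in magnolin. The groups did not overlap and the differences were 0.30, 0.42, 0.35 and 0.40 (adjusted p = 0.194). DUSP6, the ERK phosphatase, was at 3.15, 2.77, 4.25 and 3.995 FPKM and 5.28, 3.53, 5.19 and 5.02 FPKM (adjusted p = 0.282). Of 10 AP-1 and immediate early genes 0 passed and all 10 had a change above 0, with medians of 0.70 and 0.59 in replicates 1 and 2 and 0.07 and 0.06 in replicates 3 and 4. JUN was at 26.9, 18.5, 20.9 and 23.2 FPKM and 47.5, 31.5, 27.1 and 25.7 FPKM (adjusted p = 0.214), and JUND at 36.1, 109.8, 83.1 and 84.8 FPKM and 64.9, 157, 114 and 104 FPKM (adjusted p = 0.158).

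Cell cycle genes differed mainly in 1 replicate. Of 24 mitosis genes 0 passed and all had a change below 0, with 6 lower in all 4 replicates, where 9.08% of all tested genes were. Their medians were -0.23, -1.08, 0.07 and -0.13 in replicates 1 to 4, and those of 23 S phase genes 0.06, -0.83, 0.02 and 0.00. PLK1, a mitotic kinase, was at 44.3, 45.9, 33.7 and 33.7 FPKM in control and 38.1, 18.3, 28.3 and 27.6 FPKM in magnolin, so replicate 2 carried most of the difference. CDC20 was at 101, 152, 119 and 122 FPKM and 93.8, 73.5, 109 and 111 FPKM, again with replicate 2 apart. Without replicate 2 the median of the mitosis list was -0.09 and that of the S phase list -0.02. CDKN1A, the cyclin-dependent kinase inhibitor p21, was at 17.7, 6.81, 10.3 and 9.27 FPKM and 25.9, 22.3, 14.6 and 15.6 FPKM, with a difference of 1.58 in replicate 2 and 0.46 to 0.69 in the others (adjusted p = 0.159). Of 17 p53 targets and 17 BCL2 family and death receptor genes 0 passed, which is near the share of 0.313% over all tested genes. TNFSF10, the death ligand TRAIL, was at 0.132, 4.88, 8.19 and 7.26 FPKM and 0.0918, 1.12, 1.27 and 0.835 FPKM. Its differences in replicates 2 to 4 were -1.47 to -2.17, and replicate 1 held at most 0.132 FPKM of it (log2 change -1.43 ± 0.32, adjusted p = 0.14999).

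Of 13 tested BMP and TGF-beta genes 1 fell (BMP4), 4 were higher and 2 lower in all 4 replicates, and the median was 0.06. Of 18 tested mesenchymal and matrix genes 0 were called, 4 were higher and 3 lower in all 4 replicates, and the median was 0.03. COL8A1 and LAMB1, which are in neither list, fell too. BMP4, a bone morphogenetic protein, was at 1.44, 19.3, 26.1 and 22.8 FPKM in control and 0.534, 9.16, 12.3 and 13.4 FPKM in magnolin. Each pair fell, with replicate 1 far below the others in both groups, and the log2 change was -0.85 ± 0.11 (adjusted p = 0.0406). BMP2, a related ligand, was at 10.01, 15.1, 15.5 and 16.3 FPKM and 12.2, 28.6, 23.1 and 24.5 FPKM, higher in each pair (adjusted p = 0.135). ID2, a target of BMP signalling, was at 3.01, 4.13, 2.19 and 1.89 FPKM and 8.51, 7.19, 2.86 and 2.99 FPKM (adjusted p = 0.178), and TGFB2 at 12.5, 10.3, 9.97 and 10.4 FPKM and 5.76, 7.65, 5.82 and 6.92 FPKM, below control with no overlap (adjusted p = 0.0965). COL8A1, a short-chain collagen, was at 2.97, 27.5, 35.2 and 31.2 FPKM and 1.21, 15.5, 17.5 and 18.4 FPKM and fell by 0.83 ± 0.10 (adjusted p = 0.0386). LAMB1, a laminin chain of basement membranes, was at 14.3, 2.61, 5.17 and 4.43 FPKM and 6.88, 1.23, 2.33 and 2.21 FPKM and fell by 0.83 ± 0.10 (adjusted p = 0.0386); it overlaps DLD. Both were lower in each pair, and replicate 1 was the lowest library for COL8A1 and the highest for LAMB1. THBS1, a matrix glycoprotein, was at 46.3, 40.9, 36.05 and 39.7 FPKM and 24.2, 34.02, 25.4 and 27.5 FPKM, and FBLN1, a fibulin, at 0.952, 3.29, 3.79 and 3.37 FPKM and 0.977, 4.85, 8.94 and 10.3 FPKM, neither past the test.

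Of 19 epithelial markers tested 0 passed, 6 were lower and 0 higher in all 4 replicates, and the median was -0.31, with -0.05 and -0.10 in the first table and -0.41 and -0.45 in the second table. KRT18, a simple-epithelium keratin, was at 188, 174, 163 and 159 FPKM in control and 169.9, 96.3, 109.5 and 116 FPKM in magnolin (adjusted p = 0.214); it overlaps KRT8. EPCAM, given above, was lower in each pair by 0.16 to 0.69 (adjusted p = 0.222). KRT80, an epithelial keratin, PRSS23, a secreted serine protease, and SEMA3A, a secreted guidance protein, fell past the test and were singled out after their values were seen. KRT80 was at 26.2, 11.5, 19.7 and 18.5 FPKM in control and 14.05, 6.84, 11.1 and 11.4 FPKM in magnolin. PRSS23 was at 26.2, 34.2, 31.04 and 32.1 FPKM and 16.5, 19.8, 18.2 and 20.4 FPKM, with no overlap. SEMA3A was at 16.2, 11.5, 19.5 and 18.1 FPKM and 9.96, 6.77, 12.4 and 11.4 FPKM, with differences of -0.65, -0.68, -0.62 and -0.62, the most even of the 3. Their log2 changes were -0.74, -0.69 and -0.64 (adjusted p = 0.0462, 0.0487 and 0.0487).

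Several called genes belong to no list. TCN1, which carries vitamin B12, was at 17.3, 2.503, 3.38 and 2.81 FPKM in control and 2.21, 0.707, 0.631 and 0.1904 FPKM in magnolin. No magnolin library reached the lowest control, and it fell by 1.66 ± 0.22 (adjusted p = 0.0462), the largest change of the 40. TM4SF1, a tetraspanin-like surface protein, was at 71.9, 40.7, 33.7 and 35.4 FPKM and 39.7, 16.9, 20.8 and 19.3 FPKM. Its relative TM4SF18 was at 7.17, 3.501, 3.65 and 4.21 FPKM and 1.91, 0.989, 1.72 and 1.55 FPKM. Both were lower in each pair, and their log2 changes were -0.89 and -1.12 (adjusted p = 0.0462 and 0.0386). PER3, a clock gene, was at 1.69, 3.01, 2.15 and 2.12 FPKM and 0.472, 0.837, 0.938 and 0.955 FPKM, short of the threshold (adjusted p = 0.0569). Every control and no magnolin library reached 1 FPKM, so PER3 was tested only through the control group. That alone fixes that its groups did not overlap.

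On the rising side, DHRS2, a short-chain dehydrogenase, was at 100.3, 62.8, 48.6 and 54.2 FPKM in control and 282, 112, 104 and 100.02 FPKM in magnolin. Replicate 1 was highest in both groups, and the log2 change was 1.06 ± 0.13 (adjusted p = 0.0406). RHOB, a small GTPase of endosomes, was at 32.5, 17.6, 12.8 and 11.4 FPKM and 51.02, 43.6, 23.2 and 20.7 FPKM and rose by 0.88 (adjusted p = 0.0487). GALNT12, which starts mucin-type glycans, was at 7.72, 3.201, 3.47 and 3.11 FPKM and 14.5, 5.85, 6.52 and 7.01 FPKM and rose by 0.81 (adjusted p = 0.0386). All 3 were higher in each pair, and for DHRS2 and RHOB the groups did not overlap within either table. PCSK1N, an inhibitor of a prohormone convertase, was at 5.46, 3.46, 2.62 and 2.31 FPKM and 12.2, 6.97, 5.705 and 4.43 FPKM and rose by 0.87 (adjusted p = 0.0386). METRNL, a secreted meteorin-like protein, was at 3.01, 2.65, 1.78 and 2.29 FPKM and 6.595, 7.87, 3.43 and 4.51 FPKM, with no overlap, and rose by 0.91 (adjusted p = 0.0487). LZTS3 was at 1.55, 2.46, 3.43 and 3.03 FPKM and 3.29, 7.81, 6.04 and 5.68 FPKM, higher in each pair and just short of the threshold (adjusted p = 0.05804). HIST1H2BD, a histone H2B gene, was at 10.7, 23.4, 23.6 and 25.7 FPKM and 27.1, 49.6, 43.8 and 38.1 FPKM and rose by 0.93 (adjusted p = 0.0487); of 8 histone genes it alone passed, 6 were higher in all 4 replicates and the median was 0.42. At the edge of the naming rule, the smallest of the 4 differences was 0.67 for LZTS3 and 0.63 for RHOB just inside and 0.59 for ALDOA just outside, and -0.67 for BMP4 and TM4SF1 inside and -0.65 for KRT80 outside.

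Other programmes showed no called gene. The medians were -0.02 for 14 unfolded protein response genes, 0.08 for 21 cholesterol and fatty acid synthesis genes, -0.08 for 14 heat shock chaperones, 0.00 for 25 nuclear respiratory chain subunits and 0.08 for 13 mitochondrial genome transcripts. HERPUD1, an endoplasmic reticulum stress protein, was at 9.86, 22.4, 16.3 and 16.1 FPKM in control and 13.6, 25.5, 16.6 and 16.7 FPKM in magnolin (adjusted p = 0.6002). HSPB1, a small heat shock protein, was at 347, 300.1, 253 and 262 FPKM and 308, 177, 179.7 and 158 FPKM, lower in each pair by 0.17 to 0.76 (adjusted p = 0.178). A test that misses the threshold does not show that these genes were alike in both groups.

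**Figure D3:**
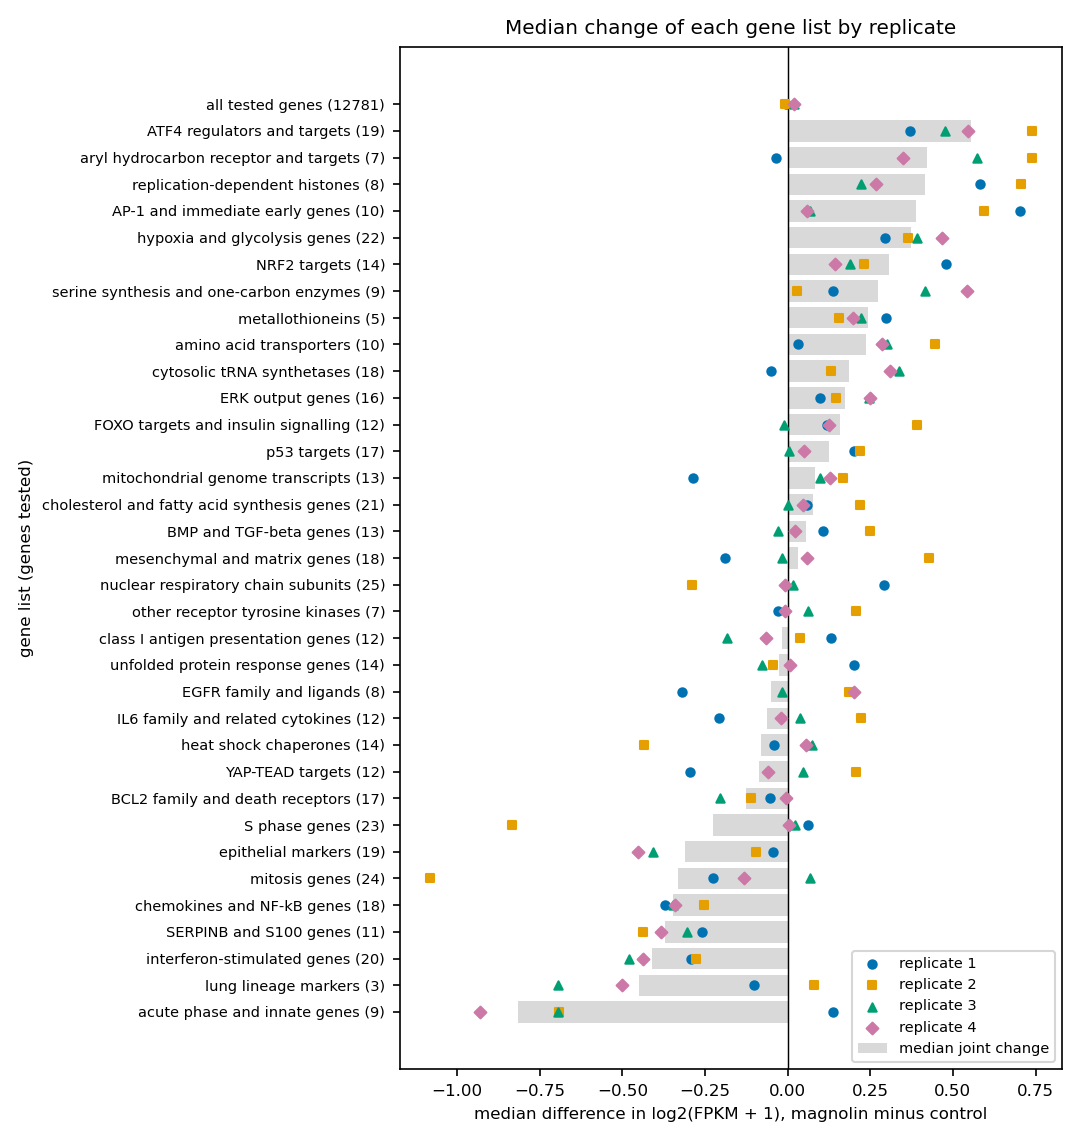
Median difference in log2(FPKM + 1), magnolin minus control, of each gene list with at least 3 tested genes, and of all tested genes (top). Bars are medians of the joint change and points those of single replicates. The ATF4, hypoxia, chemokine and interferon lists keep one sign in all 4 replicates. Several other lists do so too, among them the NRF2, ERK output, histone, and SERPINB and S100 lists. The mitosis and S phase medians come mostly from replicate 2.

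The tables differed in how closely replicates lay together. Across all 12781 genes, the differences of replicates 1 and 2 correlated at r = 0.28 and those of replicates 3 and 4 at r = 0.39. Pairs of replicates from different tables correlated at 0.03 to 0.13. Genes are not independent replicates, and replicates of a table may share its normalization. In the first table alone, limma called 0 of 13103 genes (0%), 255 having an unadjusted p under 0.05, and voom on rebuilt reads also called 0; with the replicate block limma called 130 (0.992%). In the second table alone it called 92 of 14673 genes (0.627%), 37 higher and 55 lower, and 43 with the block (0.293%). Leaving out any 1 control or magnolin library of the second table left 0 calls, with 1063 to 1484 genes at an unadjusted p under 0.05, and leaving out a chloroform library gave 154 or 140. A test of the difference in effect between the tables called 0 of 12781 genes (0%) by limma and 0 by voom, with 2012 and 2175 at an unadjusted p under 0.05. Leaving out replicate 1, 2, 3 or 4 gave that test 2169, 964, 34 and 23 calls, with 1 residual degree of freedom per gene. For CYP1A1, MT1A and ERBB2 the unadjusted p of that difference was 0.00453, 0.00207 and 0.002299. Table and culture or sequencing occasion cannot be told apart, since the labels name neither.

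**Figure D4:**
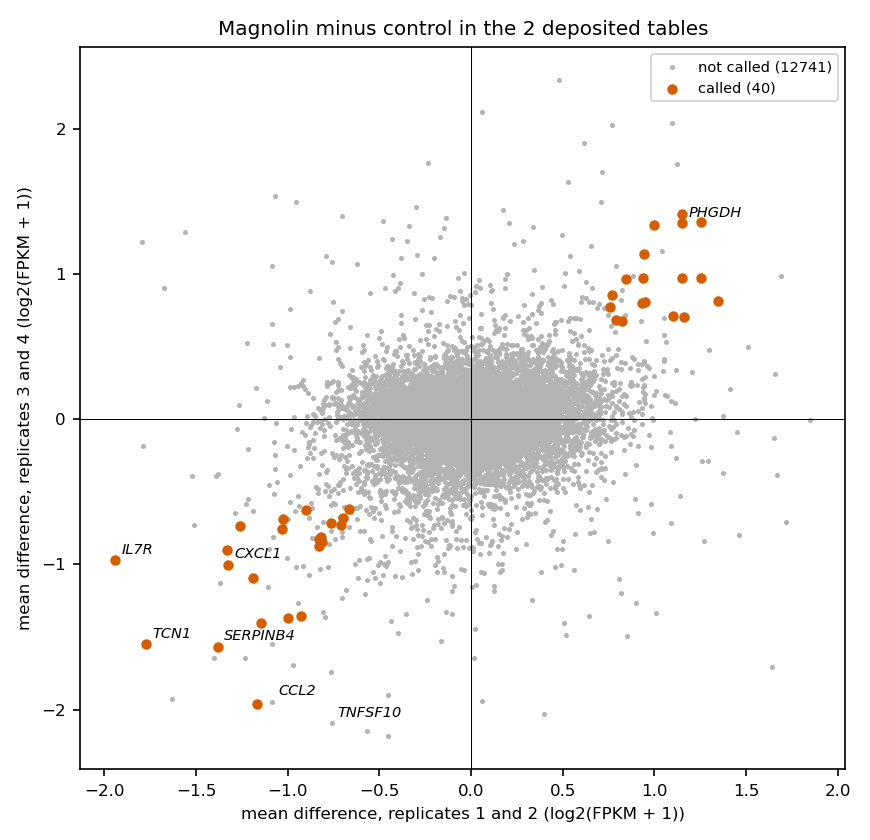
Mean magnolin minus control difference in log2(FPKM + 1) of each tested gene in replicates 1 and 2 (x axis) against replicates 3 and 4 (y axis). The 40 called genes, larger points, lie in the quadrants where both tables agree in sign, which their selection makes nearly certain. Most of the other genes scatter around 0. CCL2 and TNFSF10 are further from 0 on the y axis than on the x axis and were not called.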

How the data were processed

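RNA was extracted, checked on an Agilent instrument and made into libraries with NEB reagents, per the labels' protocols, which leave the strand setting unstated. The authors deposited FPKM per gene, with gene length and coordinates, for 58735 genes in each of 2 tables used here. The build is hg38 per the submitters' processing notes; no aligner or counter is given in the sources used here. In the whole series 2 value columns whose names match no sample were not used. FPKM times gene length gave whole multiples of 1 read, within 0.05, for 100% of values of up to 2000 reads, so reads were rebuilt for depth and 1 alternative. The library size behind FPKM is not known, and reads of overlapping or near-identical genes cannot be told apart.

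Genes that reached 1 FPKM in 4 or more of the 8 libraries were tested on log2(FPKM + 1) with limma 3.58.1 in R 4.3.3 (empirical Bayes with a mean trend), with replicate numbers as blocks and Benjamini-Hochberg adjustment over all tested genes. Each table was also tested alone, with the chloroform libraries sharing the spread. Libraries of one number were taken as pairs by a rule set for the comparison, since the labels give only numbers. Deviations from the group means correlated between same-numbered control and magnolin libraries at 0.82, 0.46, 0.60 and 0.52 over 4 replicates. These values include the difference between the tables, and number 4 correlated better with number 3 than with its own. Within the first table, where replicate 1 stands apart, the correlation was 0.73. Within the second table it was 0.06, so the data give little ground for pairing numbers 3 and 4 as was done. The fit was tested on simulated data with known changes.

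Named genes are the 12 protein-coding genes per direction with the largest smallest-of-4 difference and a mean of 2 FPKM or more in the higher group, up to 3 same-sign members per list and direction, EGFR, ERBB2, ERBB3, MET and AXL, and members of lists of 10 or fewer. The members and the 37 lists (572 entries, all matched, 482 tested) were chosen with earlier results of these data known. Lists are described by counts and medians. Besides the overlaps given with single genes, ENO2, PRSS23, TXNRD1, ETV5, AHRR and ERBB2 overlap another gene that was tested. A gene that the naming rule also takes is not reported here. Promoters come from RefSeq. Alternatives were the pseudocount, filter, scaling, block, library set, voom and each replicate left out.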

Additional observations from a re-analysis of the deposited data

Results flagged for a closer look

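A sample was set aside for a closer look where its gap to the nearest of the other 3 replicates was too large a share of its group's whole range (Dixon's gap test at the 95% level), computed on log2(FPKM + 1) of each group and on the 4 differences, for the tested genes described in the text. This marked 50 of 279 sets of 4 values, where chance marks about 1 in 20. In control replicate 1 the FPKM stood apart at 21.4 for IL11, 7.72 for GALNT12, 2.96 for PCK2, 17.3 for TCN1, 1.39 for SERPINB4, 2.97 for COL8A1, 1.44 for BMP4, 68.6 for CYP1B1 and 0.832 for SERPINB3. In the same library it stood apart at 2.19 for S100A4, 193 for EPCAM, 0.952 for FBLN1, 10.01 for BMP2, 10.7 for HIST1H2BD, 116 for MET, 23.8 for AXL, 14.2 for AHR and 1.05 for SEMA6B. In control replicate 4 the FPKM stood apart at 17.8 for IL7R. The difference of log2(FPKM + 1), magnolin minus control, set replicate 1 apart at 0.98 for PHGDH, 0.60 for DUSP6, -0.48 for LCN2, -0.78 for IFIT3, 0.12 for SLC7A5, 0.62 for NFKBIA and -0.19 for PDZK1IP1. The difference of log2(FPKM + 1), magnolin minus control, set replicate 2 apart at 1.35 for LZTS3, -1.28 for PLK1 and -1.04 for CDC20. In magnolin replicate 1 the FPKM stood apart at 282 for DHRS2, 5.45 for PCK2, 0.369 for SERPINB4, 1.21 for COL8A1, 0.534 for BMP4, 1.59 for ALDH1L2, 63.9 for PSAT1, 1.998 for SLC1A4 and 75.6 for AARS. In the same library it stood apart at 95.1 for CYP1B1, 0.8293 for S100A4, 172 for EPCAM, 86.04 for MET, 136 for SLC7A5, 12.2 for AHR, 0.865 for AHRR, 24.4 for TIPARP and 35.2 for ALDOC. In the same library it stood apart at 22.1 for ENO2 and 9.06 for NKX2-1. In magnolin replicate 2 the FPKM stood apart at 3.53 for DUSP6.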

How the results depend on the processing

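Without the replicate block, with a term for the table in its place, limma called 0 genes over both tables (659 at an unadjusted p under 0.05), against 40 with it, and with the block as an addition it called 130 in the first table and 43 in the second table, against 0 and 92. Over both tables the count was 25 with a pseudocount of 0.1, 0 with no filter (33555 genes tested), 129 over protein-coding genes alone, 0 with the chloroform libraries in the fit, 163 by voom on rebuilt reads, and 0 to 109 when 1 replicate was left out. Of the 40 genes, 22 were called with the other pseudocount and 36 by voom. In the second table the count was 165 with 2 groups in the fit, 0 with no filter, 577 by voom, and 0 to 154 without 1 library. The difference between tables gave 23 to 2169 calls without 1 replicate, and 0 under the remaining alternatives. Genes of one sign numbered 4158 with no filter, 1525 at a mean FPKM of at least 5, and 3646 to 4518 without 1 replicate. Rescaling by median ratios left 40 and 92 calls, moved the median of all genes from 0.0004 to -0.0004, and gave the list medians to within 0.01. List medians without each replicate were chosen after seeing the data. Those of the ATF4, hypoxia, chemokine and interferon lists kept their sign, as did those of many other lists.

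Precision is limited by 4 pairs in which replicate 1 stands apart, by the unknown dose and time, and by counting error for genes near 1 FPKM. In bulk RNA, fewer cells of a kind and less RNA per cell cannot be told apart.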

Other observations

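The remaining called protein-coding genes belong to no list and were singled out after their values were seen. MYH15, a myosin heavy chain, was at 5.85, 4.68, 8.45 and 8.04 FPKM in control replicates 1 to 4 and 2.67, 1.55, 4.13 and 5.44 FPKM in magnolin (log2 change -0.86, adjusted p = 0.0496). CCBE1, a secreted protein needed for lymphatic vessel growth, was at 6.06, 2.72, 3.05 and 3.67 FPKM and 2.92, 0.917, 1.66 and 1.99 FPKM (log2 change -0.76, adjusted p = 0.0495). Both were lower in each pair. FUCA1, a lysosomal fucosidase, was at 11.04, 8.58, 6.104 and 6.57 FPKM and 16.1, 20.8, 11.8 and 14.99 FPKM (log2 change 0.91, adjusted p = 0.0495), and SLC37A2, a sugar phosphate carrier, at 7.72, 7.97, 13.7 and 13.9 FPKM and 11.7, 21.5, 26.7 and 29.4 FPKM (log2 change 0.96, adjusted p = 0.0487), both higher in each pair. The other 4 called genes are shorter than 300 bases and are not described.

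Of 12 tested YAP-TEAD targets and 12 tested FOXO and insulin signalling genes 0 were called, with median log2 changes of -0.09 and 0.16.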
